A study of Homo with 2 samples.

Results

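Cadherins and protocadherins were followed in human blastoids, which are 3D cultures that model the blastocyst, here made from the established embryonic stem cell line KhES1. Genes of the count tables were taken as members where the symbol is CDH and a number, or PCDH and a number with or without capital letters between. This rule finds 84 of the 28363 genes in either table, and it uses no measured value. Library 1 held 80 of them, library 2 held 82 and both held 78. Of the others, CDH15, PCDHGA4, PCDHGB1 and PCDHGC4 were listed in library 2 only, and PCDHGA2 and PCDHGC5 in library 1 only. The members are 21 cadherins, 11 non-clustered protocadherins, and 52 clustered protocadherins in the families PCDHA with 14 genes, PCDHB with 16 and PCDHG with 22.

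Per the labels, both libraries belong to 1 group. Primed stem cells of the line were aggregated in microwells for 24 h and then embedded in hydrogel for 4 days, in high-glucose DMEM containing 10% fetal bovine serum and 10 µM Y27632, an inhibitor of ROCK kinase. No other treatment, line or time was analysed here, so comparisons are between kinds of cells within the 2 libraries. Nothing in the labels says whether the libraries came from separate cultures. The tests held a term for the library. Their p-values thus measure only how differences between groups of cells vary between these libraries, with a spread shared by all groups of a fit.

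Classical cadherins are transmembrane proteins that bind the same cadherin on a neighbouring cell in the presence of calcium and hold catenins, and through them actin, at adherens junctions. Type I cadherins include CDH1 (E-cadherin) of epithelia and of the early embryo, CDH2 (N-cadherin) of neural and mesodermal cells, CDH3 (P-cadherin), named for placenta, and CDH4 (R-cadherin). Exchange of E-cadherin for N-cadherin is a textbook feature of cells that leave the epiblast at the primitive streak. Type II cadherins, such as CDH6, CDH10 and CDH11, share the same fold with another adhesive interface. Protocadherins have more extracellular repeats and bind no beta-catenin. The clustered ones are known from neurons, where each cell uses its own few promoters of the clusters.

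Barcodes were kept where they had 1000 or more detected genes and mitochondrial genes gave no more than 20% of their UMIs (unique molecular identifiers, 1 per captured RNA molecule). They numbered 937 of 1988 in library 1 and 1519 of 2601 in library 2, with median depths of 35059 and 25116 UMIs, and no kept barcode was shared by the libraries. Groups of cells were found by clustering on a random subset of the UMIs without the members, and were named from marker lists. Trophectoderm/amnion-like cells made up 725 and 941 cells, epiblast-like cells 49 and 82, and syncytiotrophoblast-like cells 26 and 67. A further 137 and 429 cells, with median depths of 3830 and 2623 UMIs, stayed unnamed. The labelled cell type is embryonic stem cells, while POU5F1, the defining gene of these cells, was at 31.3 and 39.0 CPM in trophectoderm/amnion-like cells and SOX2 at 1.57 and 2.84 CPM. Of the 12 pluripotency markers, 5 were at 10 CPM or more in trophectoderm/amnion-like cells, and the list summed to 601 and 608 CPM. In epiblast-like cells 10 of the 12 were, with a sum of 2277 and 2554 CPM.

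The epiblast-like class split into 3 sub-clusters, each named here after 1 gene of the marker lists. None of these 3 genes was among the 10 genes of largest fold in its sub-cluster. The SOX2 sub-cluster (14 and 46 cells) had SOX2 at 151 and 153 CPM and held 11 of 12 pluripotency markers at 10 CPM or more. It also held 7 of 10 primitive streak and mesoderm markers at that level, with a sum of 557 and 477 CPM. In the GATA3 sub-cluster (21 and 21 cells), 10 of 12 pluripotency markers and 13 of 14 trophectoderm/amnion markers reached that level. By the rule used for naming it scored as trophectoderm/amnion, and it is kept in the epiblast-like class because the clustering put it there. Its median depth was the highest of the 3, at 82226 and 50960 UMIs, and the doublet caller marked 1 of its 42 cells. The part of mixed droplets in its values was not tested. The TBXT sub-cluster (14 and 15 cells) had 9 of 10 primitive streak and mesoderm markers at that level, with a sum of 1211 and 1925 CPM. Of the 12 pluripotency markers 8 were at that level there too, with a sum of 1534 and 1610 CPM, while SOX2, NANOG and LEFTY1 were at 0. Mesenchyme markers summed to 442 and 366 CPM there with DCN at 0, and endothelium markers to 211 and 147 CPM with PECAM1, ERG and TIE1 at 0.

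Levels are in CPM, or UMIs of a gene after scaling the total of each library or group of cells to 1000000. The members together summed to 1239 CPM in library 1 and 1139 CPM in library 2. CDH1, on chromosome 16 at chr16:68737292-68835537 (RefSeq positions, GRCh38.p14), led with 260 and 242 CPM. CDH3 followed with 178 and 168 CPM; it ends 3521 bases before CDH1 begins, so the pair with the most UMIs lies side by side. These 2 genes took 35.3% and 36.0% of all member UMIs, and the first 10 members took 80.3% and 80.6%. CDH10 (90.8 ± 15.5, SD, n = 2), CDH11 (86.6 ± 12.4) and PCDH17 (78.4 ± 0.744) came next and did not differ beyond the spread between libraries. The counts were not scaled by gene length, and the setting for intron reads is not given. The order of the members is thus one of counted UMIs, since capture can differ between genes and with their length. Of the 78 members in both tables, 16 were at 10 CPM or more, 24 between 1 and 10 and 38 under 1. Over all 25556 genes in both tables, 39.8% reached 10 CPM and 64.8% reached 1 CPM.

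**Figure D1:**
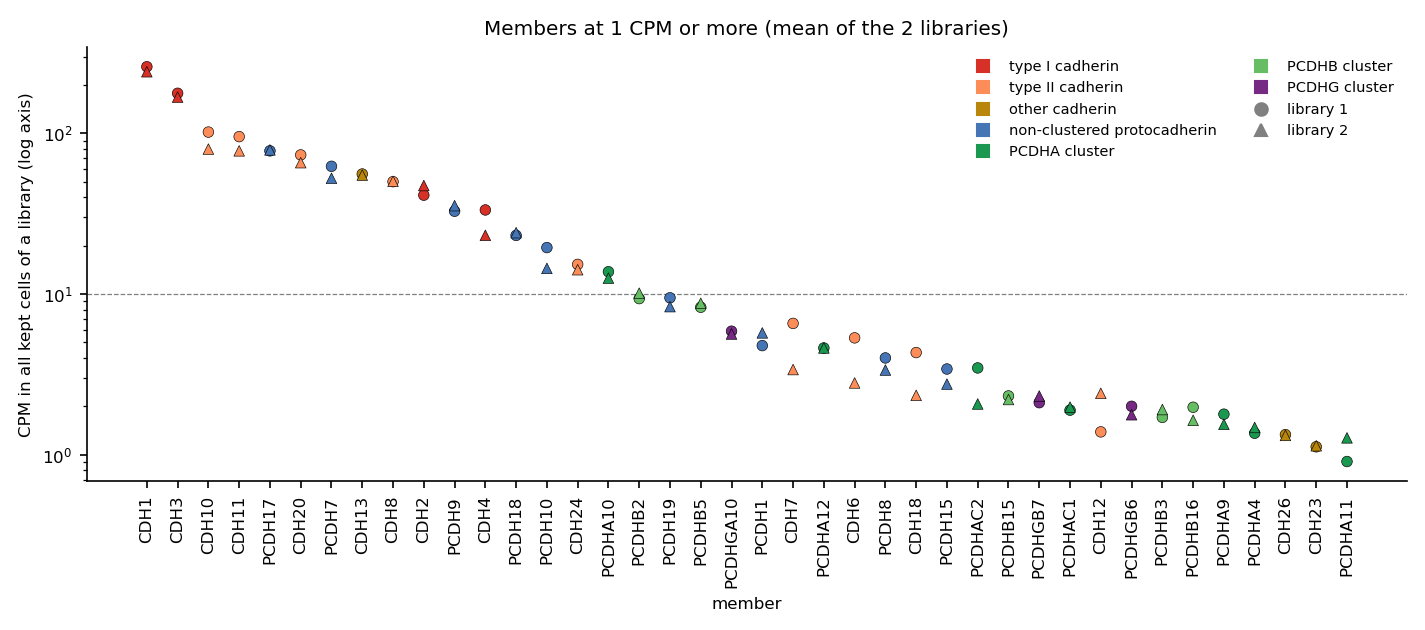
Level of each member at 1 CPM or more, in CPM over all kept cells on a log axis, with a circle for library 1 and a triangle for library 2, coloured by family; the dashed line is 10 CPM. CDH1 and CDH3 stand above 100 CPM, and PCDHA10 is the only clustered protocadherin whose mean lies above the line.

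Detection per cell followed these levels. After each cell was thinned to 5000 UMIs, 70.3% of the 827 cells from library 1 had a UMI of CDH1 (67.0 to 73.4, 95% exact interval), and 65.9% of the 1138 from library 2 did. CDH3 was found in 54.1% and 52.4%, CDH11 in 25.5% and 24.8%, and CDH2 in 11.7% and 13.3%. In all, 11 members were detected in 10% or more of the thinned cells. Thinning left out 110 and 381 shallower cells, and the intervals cover counting error only.

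The first comparison asked which members differed between trophectoderm/amnion-like and epiblast-like cells. CDH2 and PCDH10 were high in epiblast-like cells, and CDH3, CDH20 and PCDH17 were high in trophectoderm/amnion-like cells. UMIs not used for clustering were summed per library and class and tested with edgeR. The filter on low counts left 25 of the 84 members, and 17 of these were called at an adjusted p under 0.05, or 68.0%, against 45.7% of all 12979 genes tested. Higher in trophectoderm/amnion-like cells were 9 members, beside 21.9% of all genes, and lower were 8, beside 23.9% of all genes. The median log2 fold change of the 25 was 0.10 and that of all genes -0.01. All 17 had the same direction in both libraries. Members that passed only through a class where they were high had to differ, so the count describes those tested and not the family.

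Among type I cadherins, CDH1 was at 270 and 246 CPM in trophectoderm/amnion-like cells and at 240 and 226 CPM in epiblast-like cells. Its log2 fold change was 0.20 (SE 0.14, adjusted p = 0.265), so a difference was not called. The epiblast-like level is a mean over sub-clusters that lie far apart, given further on. Against the SOX2 sub-cluster alone, CDH1 was called higher in trophectoderm/amnion-like cells (0.71, adjusted p = 0.00116 by edgeR). Without the TBXT sub-cluster it was at -0.02 (adjusted p = 0.919). CDH2 was at 25.1 and 24.4 CPM against 218 and 246 CPM, with no overlap, and its log2 fold change was -3.18 (SE 0.15, adjusted p = 5.06e-19). The neural and retinal cadherin CDH4 was lower as well, at 25.7 and 17.9 against 102 and 76.2 CPM (log2 fold change -1.99, SE 0.18). CDH3 went the other way, from 59.5 and 50.4 CPM in epiblast-like cells to 195 and 192 CPM, a log2 fold change of 1.88 (SE 0.15, adjusted p = 6.58e-13).

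All 7 type II cadherins that passed the filter were called, 4 higher and 3 lower. CDH20 rose most, from 11.2 and 6.15 CPM in epiblast-like cells to 79.9 and 74.3 CPM (log2 fold change 3.26, SE 0.25). CDH8 was at 54.9 and 57.8 against 21.8 and 13.5 CPM, CDH24 at 16.3 and 16.2 against 5.89 and 4.51 CPM, and CDH10 at 100 and 82.5 against 64.2 and 19.3 CPM. CDH10 differed between the libraries in epiblast-like cells, and its log2 fold change was 0.63 in library 1 and 2.08 in library 2. CDH6, known from kidney and neural crest, was nearly absent from trophectoderm/amnion-like cells (0.718 and 1.54 CPM) and at 52.4 and 12.3 CPM in epiblast-like cells, a log2 fold change of -4.48 (SE 0.48). CDH18 fell from 15.9 and 6.56 CPM to 3.66 and 1.89 CPM. In epiblast-like cells CDH6 was seen in 35 of 131 cells and CDH18 in 26, and 3 cells held 43.9% and 49.5% of their UMIs. Of the 89 tested CDH6 UMIs of these cells in library 1, 80 came from the GATA3 sub-cluster.

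CDH11, a cadherin of mesenchymal cells, was only just called lower, at 101 and 81.7 CPM against 153 and 97.1 CPM (log2 fold change -0.37, SE 0.15, adjusted p = 0.0404). That direction rested on the TBXT sub-cluster. With the epiblast-like class reduced to its SOX2 sub-cluster the log2 fold change of CDH11 was 2.18, and without the TBXT sub-cluster it was 1.96. Both are higher in trophectoderm/amnion-like cells. In 8 other settings, among them no library block, all UMIs and no marked doublets, it kept the lower direction and was not called. CDH13 (T-cadherin), which is held in the membrane by a lipid anchor and lacks the cytoplasmic tail, was at 62.0 and 65.1 against 48.9 and 25.0 CPM (log2 fold change 0.90, SE 0.20).

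Of the non-clustered protocadherins, 7 of 11 passed the filter, 3 were called higher and 3 lower. PCDH17 was the most changed upward, at 92.1 and 99.1 CPM in trophectoderm/amnion-like cells against 2.95 and 10.2 CPM (log2 fold change 3.80, SE 0.25, adjusted p = 2.16e-15). PCDH9 was at 36.0 and 42.7 against 13.6 and 3.69 CPM, and PCDH18 at 28.0 and 27.0 against 14.1 and 16.0 CPM. PCDH10, which is known for interacting with actin regulators in migrating cells and axons, was at 6.79 and 4.08 against 127 and 98.8 CPM, a log2 fold change of -4.35 (SE 0.21, adjusted p = 1.3e-18). PCDH1 and the X-linked PCDH19 also fell, with log2 fold changes of -2.01 (SE 0.36) and -1.44 (SE 0.37). PCDH7 did not pass the threshold (log2 fold change 0.10, SE 0.18, adjusted p = 0.677), and it went down in library 1 and up in library 2. Against the SOX2 sub-cluster alone PCDH7 was called higher (0.99), as it was without the TBXT sub-cluster (0.77).

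With DESeq2's Wald test 12 of the 17 were called, and CDH10, CDH11, CDH13, PCDH9 and PCDH19 were not. Without the TBXT sub-cluster the fall of PCDH19 was no longer seen (log2 fold change -0.01) and that of CDH18 was not called (-1.09). Against the SOX2 sub-cluster alone PCDH18 was not called (0.60).

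**Figure D2:**
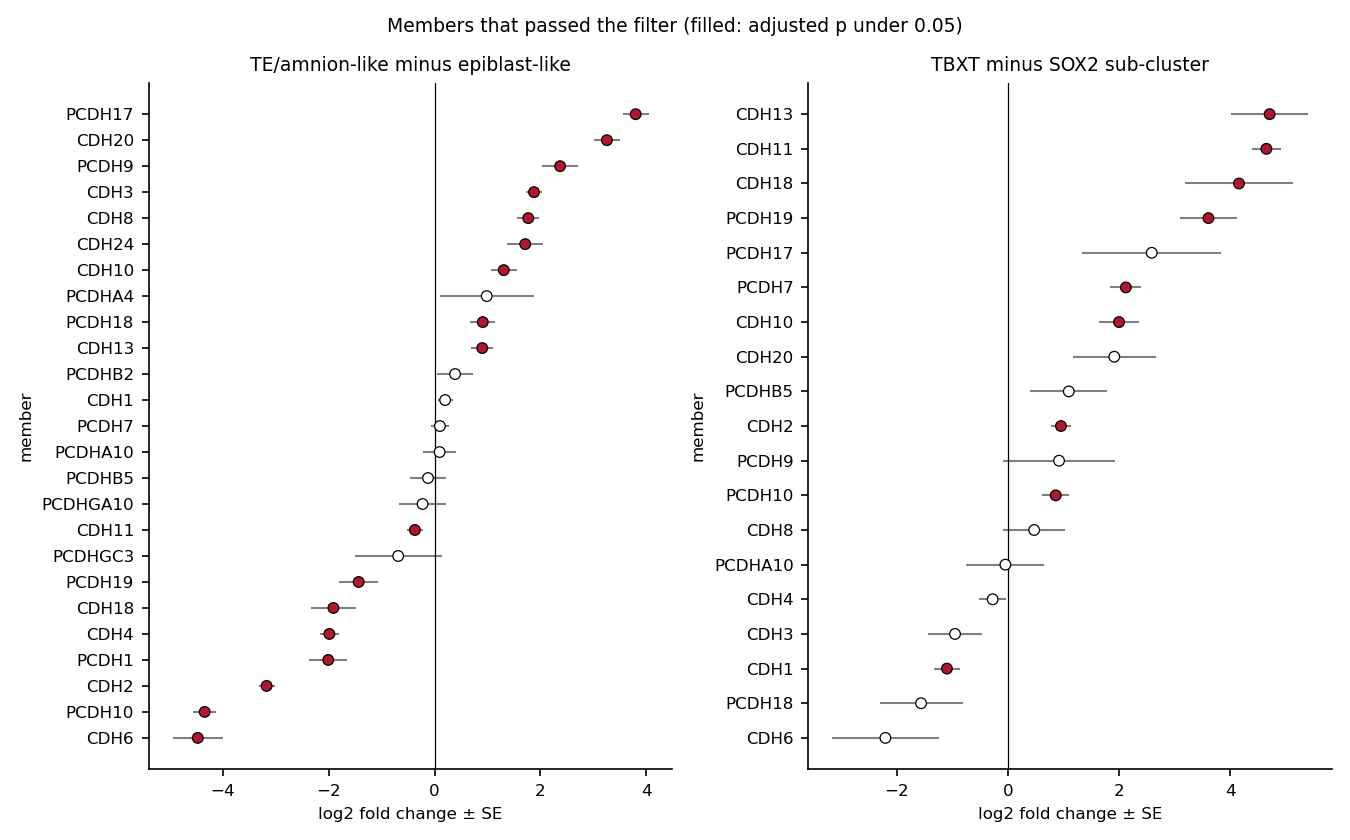
Log2 fold changes with their SE, for the members that passed the filter: trophectoderm/amnion-like minus epiblast-like cells on the left, TBXT minus SOX2 sub-cluster on the right. Filled points have an adjusted p under 0.05; CDH12 and PCDH1 are left out on the right because they had no tested UMI in the TBXT sub-cluster.

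The second comparison was between the sub-clusters of the epiblast-like class, tested in pairs that share sub-clusters, so that their folds are not independent. More members were called in the pairs with the TBXT sub-cluster, where CDH2, CDH11, PCDH7, PCDH10 and PCDH19 were at their highest and CDH1 at its lowest. Against the SOX2 sub-cluster, 21 members passed the filter and 11 were called (52.4%), while 7.27% of all 9782 genes tested were. Of the 11, 8 were higher (3.77% of all genes) and 3 lower (3.5% of all genes), and all had the same direction in both libraries. Here and in the comparisons below, members that passed only through a group where they were high had to differ. The counts therefore describe those tested and not the family.

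CDH1 was at 84.2 and 74.8 CPM in the TBXT sub-cluster and at 196 and 152 CPM in the SOX2 sub-cluster, a log2 fold change of -1.10 (SE 0.24, adjusted p = 0.00798). CDH2 was at 471 and 596 CPM against 283 and 270 CPM (log2 fold change 0.95, SE 0.18, adjusted p = 0.0024). Neither gene's libraries overlapped between the sub-clusters. CDH3 was at 7.90 and 33.5 CPM against 37.6 and 42.1 CPM and was not called (adjusted p = 0.33). CDH4 was at 111 and 87.7 against 158 and 90.7 CPM, which also missed the threshold.

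CDH11 showed the widest contrast in level. It was at 579 and 508 CPM in the TBXT sub-cluster, more than CDH1 or CDH2 reached in the SOX2 sub-cluster, and at 32.6 and 15.6 CPM in the SOX2 sub-cluster (log2 fold change 4.65, SE 0.26, adjusted p = 2.01e-08). It was seen in 26 of the 29 cells, and the 3 cells with the most held 34.0% of its 817 UMIs. CDH10, at 150 and 41.3 against 32.6 and 12.8 CPM, and CDH13, at 161 and 43.9 against 2.51 and 3.66 CPM, were also higher, with log2 fold changes of 2.00 and 4.70. CDH10 was seen in 23 of 29 cells, and 3 cells held 48.3% of its UMIs. CDH13 rested on fewer cells: it was seen in 15 of 29, and 3 cells held 59.6% of its UMIs. CDH18 rose from 2.51 and 0.916 to 26.3 and 33.5 CPM, yet 1 cell held 53.1% of its UMIs.

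CDH12, a neural type II cadherin, marked the SOX2 sub-cluster. It was at 17.6 and 38.5 CPM there, and no other sub-cluster or class of the comparison had more than 1.37 CPM in either library. It was seen in 22 of the 60 cells, 4 of 14 in library 1 and 18 of 46 in library 2. None of its tested UMIs fell in the TBXT sub-cluster, which puts it at least 8.41-fold lower there, counted against 3 UMIs over both libraries. PCDH1 had none there either, against 10.0 and 29.3 CPM, and was at least 6.18-fold lower.

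The protocadherins that rose were PCDH7, from 55.2 and 22.0 to 197 and 116 CPM (log2 fold change 2.12, SE 0.28), PCDH10, from 176 and 101 to 226 and 248 CPM (0.86, SE 0.24), and PCDH19, from 5.02 and 6.41 to 81.6 and 77.4 CPM (3.60, SE 0.51). PCDH10 was seen in all 29 cells and PCDH19 in 18. Outside the naming rule, and looked up after its values were known, PCDH8, the paraxial protocadherin of mesoderm in other vertebrates, was at 5.26 and 7.74 CPM in the TBXT sub-cluster and at 7.53 and 9.16 CPM in the SOX2 sub-cluster. DESeq2's Wald test called 6 of the 11, all higher, and not CDH1, CDH12, CDH18, PCDH1 or PCDH10.

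The GATA3 sub-cluster had less CDH2 and more CDH1 than the SOX2 sub-cluster. Here 21 members passed and 6 were called (28.6%), against 9.81% of all genes. Of these 2 were higher, beside 6.64% of all genes, and 4 lower, beside 3.17%. CDH1 was at 324 and 371 CPM, the highest of any class or sub-cluster tested, with a log2 fold change of 1.13 (SE 0.19, adjusted p = 0.000821). CDH2 was at 84.9 and 77.0 CPM (log2 fold change -1.66, SE 0.19, adjusted p = 3e-05), and PCDH10 at 64.2 and 36.4 CPM (-1.32, SE 0.26). Both values of CDH2 lay above those of the trophectoderm/amnion-like class and below those of the SOX2 sub-cluster. CDH12 had 1 tested UMI there, CDH4 was lower (-0.80, SE 0.23) and CDH13 higher (3.25, SE 0.74). CDH13 was seen in 18 of the 42 cells, and 3 cells held 67.6% of its UMIs. CDH4 was not called without the library as a block, nor CDH13 with all UMIs, and DESeq2 called neither CDH4 nor CDH12.

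CDH3 in the GATA3 sub-cluster, at 90.4 and 66.6 CPM, missed the threshold against the SOX2 sub-cluster (log2 fold change 1.06, SE 0.34, adjusted p = 0.0592). CDH6 was at 87.1 CPM in library 1 and 8.32 CPM in library 2, and its direction differed between the libraries. CDH7 was at 38.1 and 12.5 CPM there, and under 10 CPM in both libraries of the SOX2 and TBXT sub-clusters and of the other named classes. It was seen in 12 of the 42 cells, 9 in library 1 and 3 in library 2, and 3 cells held 66.2% of its UMIs. Set directly against the GATA3 sub-cluster, 12 of 21 members were called in the TBXT sub-cluster (57.1%, all genes 14.8%), 8 higher (all genes 5.78%) and 4 lower (all genes 9.06%). CDH11 led the higher ones (log2 fold change 4.28, SE 0.24), followed by PCDH19 (3.04, SE 0.45) and CDH2 (2.62, SE 0.19). CDH6 (-3.08), CDH1 (-2.23) and CDH3 (-2.01) were lower, and PCDH1, with no tested UMI, was at least 5.17-fold lower. DESeq2's Wald test called 8 of the 12, and not CDH6, CDH10, CDH13 or CDH20.

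**Figure D3:**
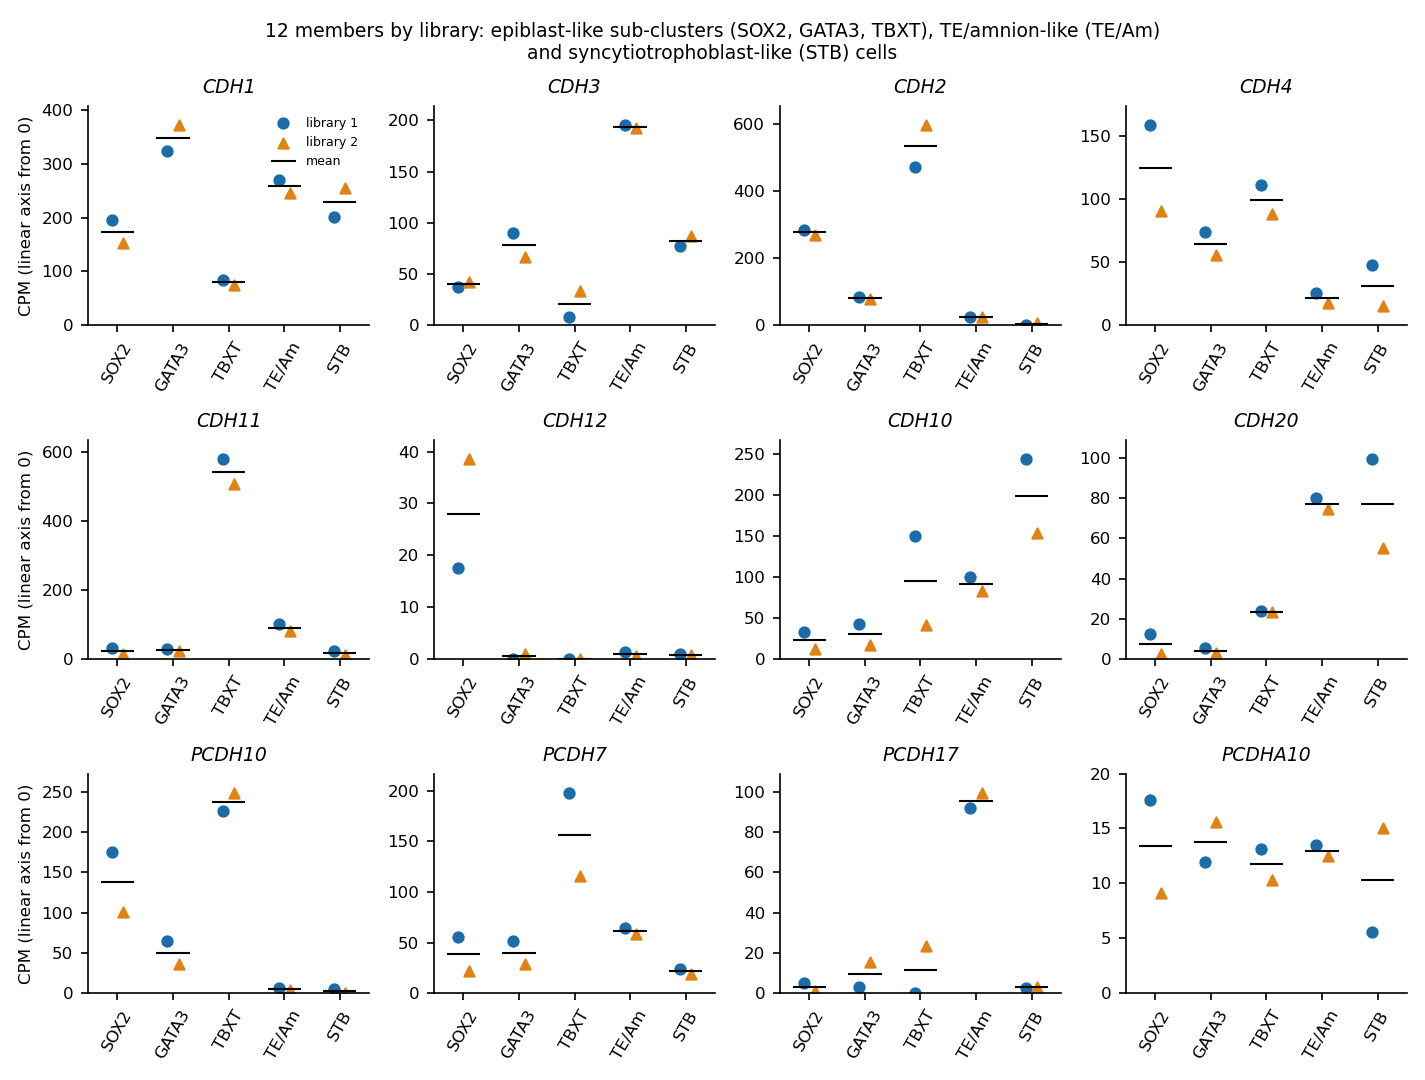
CPM of 12 members in each library (circle library 1, triangle library 2) with their mean as a bar, on linear axes from 0, for the epiblast-like SOX2, GATA3 and TBXT sub-clusters, trophectoderm/amnion-like cells (TE/Am) and syncytiotrophoblast-like cells (STB). CDH2 and CDH11 peak in the TBXT sub-cluster, CDH12 in the SOX2 sub-cluster, CDH3 and PCDH17 in trophectoderm/amnion-like cells and CDH10 in syncytiotrophoblast-like cells, while PCDHA10 has overlapping values throughout.

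The share of E-cadherin in the sum of E-cadherin and N-cadherin differed between the groups. In the TBXT sub-cluster CDH1 made up 15.2% (exact interval 10.6 to 20.7) and 11.2% (7.60 to 15.6) of the summed UMIs of CDH1 and CDH2. In the SOX2 sub-cluster the share was 40.8% and 36.0%, in the GATA3 sub-cluster 79.3% and 82.8%, and in trophectoderm/amnion-like cells 91.5% and 91.0%. Syncytiotrophoblast-like cells had the highest share, at 99.5% and 97.9%. The libraries of neighbouring groups in this order did not overlap. Counted cell by cell over all UMIs, 13 of 14 and 15 of 15 cells of the TBXT sub-cluster had more CDH2 than CDH1. In the SOX2 sub-cluster 9 of 14 and 32 of 46 cells did, in the GATA3 sub-cluster 3 of 21 and 5 of 21, and in trophectoderm/amnion-like cells 17 of 725 and 24 of 941. In the TBXT sub-cluster 2 cells in each library had no UMI of CDH1, and the median was 3 UMIs per cell. CDH1 is the most abundant member of both libraries, and the part of free RNA in these low counts was not tested.

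**Figure D4:**
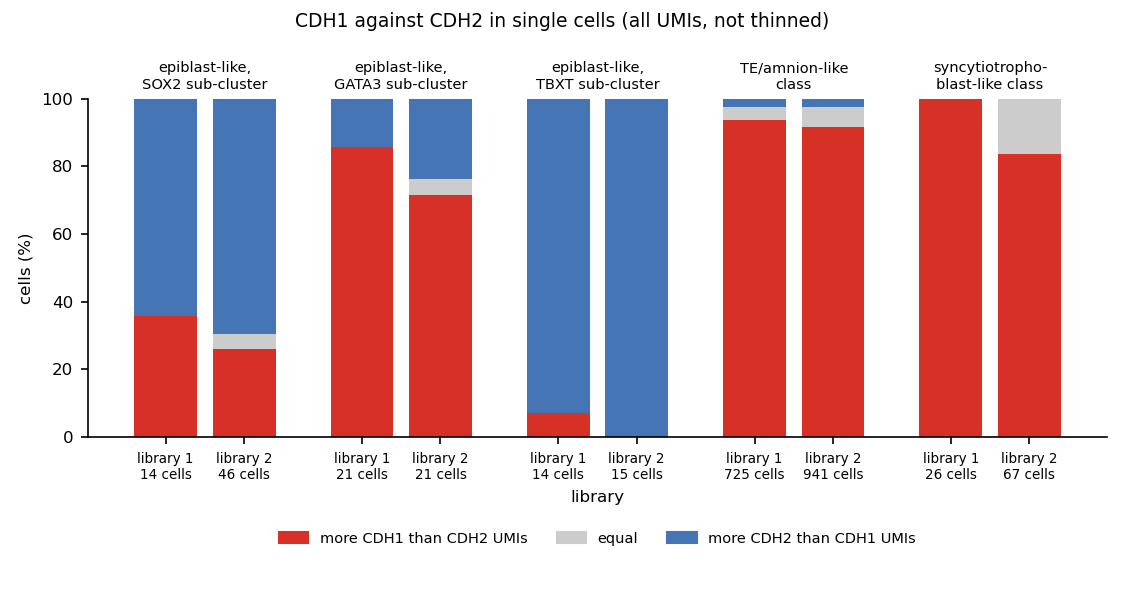
Share of cells in percent, per library and group, with more CDH1 than CDH2 UMIs (red), as many (grey) or more CDH2 (blue), over all UMIs without thinning. Blue fills nearly the whole bar in the TBXT sub-cluster and most of it in the SOX2 sub-cluster, and red fills most of the bar in the other groups.

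Over all thinned cells, CDH1 and CDH2 were found together in 8.10% and 8.26% of cells, where independent detection would give 8.24% and 8.74%. Without thinning they were together in 30.9% and 26.3%, against 28.9% and 22.9%, so the direction turned with depth. For CDH2 and CDH3 the shares in thinned cells were 4.47% and 5.89%, where independent detection would give 6.34% and 6.95%. That direction turned with depth too: without thinning the shares were 29.0% and 24.7%, against 26.7% and 20.7%. For CDH1 and CDH3 the shares in thinned cells were 40.1% and 35.7%, against 38.0% and 34.5%. These shares pool all kinds of cells and depend on depth, and no test was made of them.

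Syncytiotrophoblast-like cells, named for the fused hormone-producing type of the placenta, were set against trophectoderm/amnion-like cells in a comparison added after the classes were seen. Their 6 syncytiotrophoblast markers with counts summed to 697 and 240 CPM, against 18.7 and 16.5 CPM in trophectoderm/amnion-like cells. The 14 trophectoderm/amnion markers were all at 10 CPM or more in both classes. They summed to 3604 and 3214 CPM in syncytiotrophoblast-like cells, against 2505 and 2556 CPM. Among members, 11 of the 25 that passed the filter were called (44.0%, all genes 35.2%), 1 higher (all genes 18.4%) and 10 lower (all genes 16.8%). CDH10 was the higher one, at 243 and 153 CPM against 100 and 82.5 CPM (log2 fold change 1.17, SE 0.21, adjusted p = 3.46e-05). It was seen in 50 of the 93 cells, and 3 cells held 30.01% of its UMIs. PCDH17 fell to 2.80 and 3.16 CPM (log2 fold change -4.91, SE 0.35), CDH13 to 8.41 and 1.58 CPM (-3.67, SE 0.37), CDH11 to 22.4 and 11.1 CPM (-2.39, SE 0.24) and CDH2 to 0.935 and 5.53 CPM (-2.77, SE 0.41). CDH3 fell to 77.6 and 87.0 CPM (-1.15, SE 0.15).

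CDH1 was at 202 and 255 CPM in syncytiotrophoblast-like cells and was not called (log2 fold change -0.09, SE 0.15, adjusted p = 0.678); its direction differed between the libraries. CDH20 was not called either, at 99.1 and 55.3 CPM. After thinning, a UMI of CDH2 was found in 0 of 26 and 0 of 50 of these cells, which by 3 counts allows shares of cells with a UMI at this depth of up to 11.5% and 6.00%. In trophectoderm/amnion-like cells the shares were 9.77% and 10.6%. Without thinning, 6 of the 93 syncytiotrophoblast-like cells had a UMI of it. The median depth of the syncytiotrophoblast-like cells was 65089 UMIs in library 1 and 11720 in library 2, and the part of this gap in the values was not tested. DESeq2's Wald test did not call CDH10, PCDH1 or PCDH9 here, and with another random split of the UMIs CDH8 and PCDH7 were not called.

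Within the trophectoderm/amnion-like class, 4 clusters with enough cells in both libraries were each set against the mean of the others. That mean was taken over log levels, and 35 members passed the filter. Clusters 2 and 3 were led by mitosis genes such as CDC20 and TOP2A. Cluster 0 had 10 members called (28.6%, all genes 29.3%), all higher (all genes 15.1%). Cluster 1 had 12 (34.3%, all genes 29.9%), 9 of them higher and 3 lower (all genes 17.3% and 12.6%). Cluster 2 had 12 called (34.3%, all genes 25.0%), 2 higher and 10 lower (all genes 11.4% and 13.7%), and cluster 3 had 5 (14.3%, all genes 15.7%), 2 higher and 3 lower (all genes 10.6% and 5.08%). The total shares for clusters 0, 1 and 3 lie near those of all genes.

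Cluster 0 had the highest CDH8 (79.2 and 87.8 CPM) and PCDH17 (147 and 146 CPM) of the 4, with log2 fold changes of 1.13 (SE 0.09) and 1.03 (SE 0.08). Cluster 1 had the highest PCDH9, at 78.2 and 88.2 CPM (log2 fold change against the mean of the others 2.72, SE 0.12). Cluster 0 followed with 30.4 and 43.5 CPM and was called higher too (1.02), and clusters 2 and 3 were lower. In CPM, cluster 0 was near the plain mean of the other clusters, at 37.0 against 34.0. Its fold is against their mean on the log scale. Also higher in cluster 1 were PCDH10 (2.63, SE 0.31), CDH4 (1.95, SE 0.20) and CDH10 (1.22, SE 0.12). In cluster 2, CDH4 was at 3.16 and 1.34 CPM (-3.52, SE 0.44) and PCDH9 at 4.21 and 5.36 CPM (-2.94, SE 0.29), while PCDH18 was higher, at 52.6 and 40.2 CPM (0.81, SE 0.16). PCDH15, a tip-link protocadherin of hair cells, was called lower in this cluster, where it was at 0 and 0.67 CPM.

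In cluster 3, PCDH17 was at 35.2 and 38.6 CPM (log2 fold change -1.58, SE 0.10), the lowest of the 4 clusters. CDH1 ranged from 229 and 226 CPM in cluster 2 to 283 and 256 CPM in cluster 0. It was called higher in cluster 1 (0.20, SE 0.05) and lower in cluster 2 (-0.26, SE 0.07), both small and neither called by DESeq2's Wald test. CDH2 lay between 19.99 and 28.3 CPM in every cluster and library, with no call. CDH11 in cluster 1 (0.27) and CDH10 in cluster 3 (-0.49) were called, although library 1 alone gave -0.03 and 0.03. DESeq2's Wald test called 7 members in cluster 1 and 3 in cluster 3.

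**Figure D5:**
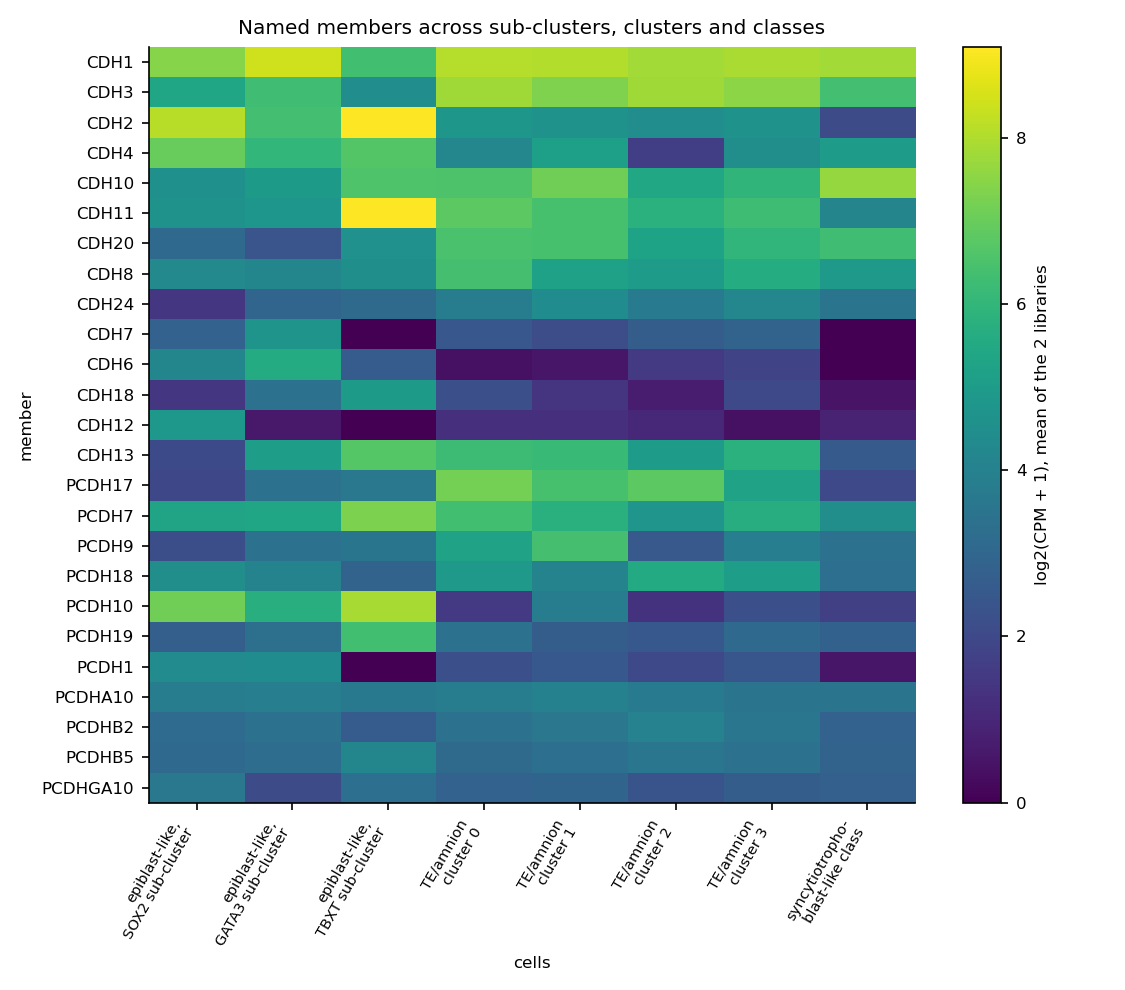
Mean level over the 2 libraries, as log2(CPM + 1), of the 25 members named by rule (rows, ordered by family) in the 3 epiblast-like sub-clusters, 4 trophectoderm/amnion-like clusters and syncytiotrophoblast-like cells (columns). CDH2, CDH11 and PCDH10 are brightest in the TBXT sub-cluster, and the 4 clustered protocadherins at the bottom stay in a narrow range.

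Counted UMIs of clustered protocadherins were low in every kind of cell. All 52 lie on chromosome 5, and together they summed to 75.5 and 74.4 CPM, with PCDHA10 (13.8 and 12.6 CPM) alone at 10 CPM or more. PCDHB2 (9.75 CPM as a mean), PCDHB5 (8.52) and PCDHGA10 (5.76) followed. The 14 PCDHA genes share their end in the annotation, at position 141012347, and the 22 PCDHG genes share theirs, at 141512975, whereas PCDHB genes end separately. Since 3' reads come from the end of a transcript, PCDHA and PCDHG genes cannot be counted apart with certainty, and values of single genes of these families are uncertain. Whether reads from the shared ends are missing from the sums and from the genes per cell was not tested.

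The sum of the clustered genes was 78.9 and 77.9 CPM in trophectoderm/amnion-like cells, 54.8 and 74.2 CPM in epiblast-like cells and 57.0 and 60.9 CPM in syncytiotrophoblast-like cells. PCDHA10 was at 13.5 and 12.5 CPM in trophectoderm/amnion-like and 13.6 and 11.9 CPM in epiblast-like cells. Of the 6 clustered genes that passed the filter in the class comparison, none was called by edgeR, with log2 fold changes from -0.69 to 0.99 and a smallest adjusted p of 0.371. In thinned cells, 33.3% (30.05 to 36.6) and 32.2% (29.5 to 35.0) had a UMI of any clustered gene, 0.409 and 0.381 genes per cell as a mean. Without thinning the means were 2.42 and 1.81 genes, with up to 15 and 11 in 1 cell. At this depth, how many of them 1 cell expresses could not be read.

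By their summed levels, the TBXT sub-cluster had the most RNA of members, 2248 and 2049 CPM, and syncytiotrophoblast-like cells the least, 870 and 736 CPM. Trophectoderm/amnion-like cells were at 1269 and 1198 CPM, the SOX2 sub-cluster at 1199 and 956 CPM and the GATA3 sub-cluster at 1101 and 902 CPM. Within each library the SOX2 sub-cluster lay below trophectoderm/amnion-like cells and above the GATA3 sub-cluster. Its range over both libraries overlapped with both of these. Non-clustered protocadherins alone summed to 537 and 493 CPM in the TBXT sub-cluster and to 60.8 and 45.9 CPM in syncytiotrophoblast-like cells.

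Several members known from other tissues were near 0, and those named here were picked after their values were seen. CDH5 of endothelium had 19 and 16 UMIs in all kept cells, CDH15 of muscle had 4 in library 2, CDH17 of intestine 9 and 7, CDH9 12 and 8, and CDH22 23 and 14. CDH23, the partner of PCDH15 in hair cells, was at 1.12 and 1.14 CPM and CDH26 at 1.33 and 1.32 CPM.

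Genes of fixed lists, of junction partners, cadherin-related genes and regulators, mostly passed the threshold between trophectoderm/amnion-like and epiblast-like cells. Of 61 that passed the filter, 40 were called, 28 higher and 12 lower, in the fit where 45.7% of all genes were, 21.9% higher and 23.9% lower. Of catenins and other adherens junction proteins, 13 of 19 were higher (all genes 21.9%) and 2 lower, including the alpha-catenin CTNNA3 at 535 against 62.2 CPM (log2 fold change 3.17, SE 0.18), CTNND2 (1.88, SE 0.19) and PLEKHA7 (1.57, SE 0.16). CTNNA2, the neural alpha-catenin, was lower (-2.36, SE 0.29). Named beyond the rule after their values were seen, beta-catenin, CTNNB1, was at 334 against 187 CPM (0.89, SE 0.14), and p120-catenin, CTNND1, at 355 against 210 CPM (0.81, SE 0.14). Of cadherin-related genes that the rule does not take, 7 of 13 were higher, such as FAT3 (1.67), CLSTN2 (1.19) and CELSR1 (0.83), and 3 lower, among them PCDH11X, at 185 against 426 CPM (-1.15, SE 0.13).

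Of 8 genes known to repress CDH1, 4 were lower in trophectoderm/amnion-like cells (all genes 23.9%) and 2 higher (TCF4 and SNAI2). ZEB2 was at 1.53 against 60.4 CPM (log2 fold change -5.30, SE 0.30), TWIST2 at 1.43 against 17.4 CPM (-3.52), SNAI1 at 1.33 against 15.04 CPM (-3.41) and ZEB1 at 2.60 against 16.0 CPM (-2.50). Within the epiblast-like class 6 of the 8 were higher in the TBXT than in the SOX2 sub-cluster (all genes 3.77%), SNAI1 at 65.0 against 1.37 CPM and ZEB2 at 170 against 64.7 CPM among them. SNAI1 in the SOX2 sub-cluster was thus near its 1.33 CPM in trophectoderm/amnion-like cells. Its lower call is against the whole epiblast-like class, which includes the TBXT sub-cluster. Of 11 genes for cleavage and turnover of cadherins, 6 were higher in trophectoderm/amnion-like cells, EXOC3 (0.93) and the sheddase ADAM10 (0.86) among them, and none was lower, beside 21.9% of all genes higher. Of 10 genes that control the protocadherin clusters, 3 were lower and none higher, which is near the 23.9% of all genes called lower: CTCF (-0.64, SE 0.13), SMC3 (-0.56) and SMC1A (-0.38).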

How the data were processed

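Single-cell RNA was measured in 2 libraries by droplet 3' sequencing with UMIs, per the labels' protocols. The authors deposited raw counts of UMIs per gene and barcode; per the submitters' processing notes they used Cell Ranger 9.0.0 and GRCh38. The annotation and the setting for intron reads are not given in the sources used here. The members and gene lists were chosen with earlier results of these data known.

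Each UMI was put at random into one of 2 parts. The first part, without members, partner lists, mitochondrial and ribosomal protein genes, was clustered with scanpy 1.11.5 (2000 variable genes, 30 components, 15 neighbours, Leiden resolution 0.5), and clusters were named from fixed marker lists. CPM by group and tests used the second part, but the same cells, so tests describe groups that clustering found. Sums per library and group went into the quasi-likelihood test of edgeR 4.0.16 after filterByExpr and TMM scaling, with a term for the library and Benjamini-Hochberg adjustment over all genes tested. The block compares groups of cells within each library, so same-numbered sums come from the same library. SE is the fold's size divided by the square root of F. Groups needed 20 cells per library, sub-clusters 10. Scrublet marked 7 of the 2456 cells as doublets; they were kept. Members at 10 CPM or more in any group compared, or called in the class comparison, were named, with up to 4 called genes of largest fold per partner list. DESeq2 1.42.0, other filters, splits and classes were alternatives. Fitting code was tested on simulated data. No promoter or protein sequence was used here.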

Additional observations from a re-analysis of the deposited data

How the results depend on the processing

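Counts of called members moved by over 1.5 times with DESeq2's Wald test only: 6 in place of 11 for the TBXT against the SOX2 sub-cluster, 7 in place of 12 for cluster 1 and 3 in place of 5 for cluster 3. The cause was not tested. CDH11 between the main classes reversed to 2.18 and 1.96 in settings chosen after seeing the data, which take the TBXT sub-cluster out of the epiblast-like class. CDH1, not called, was at -0.023 in the latter of these. PCDH7, not called either, was at -0.32 with all UMIs, -0.22 in cells of 5000 UMIs or more, -0.0031 without marked doublets and -0.42 without a filter on cells. Without the replicate block the called members numbered 16 between the main classes, 11 for syncytiotrophoblast-like cells, 5, 10 and 12 for the sub-cluster pairs, and 8, 11, 12 and 4 for clusters 0 to 3; the 2 libraries give too few pairs for a check by correlation, and the pairing comes from each library's own cells. With a single library left there is no test. The called members that kept their direction were then 17, 11, 6, 11 and 12 of as many for the classes and sub-clusters, 10 and 12 for clusters 0 and 2, and 11 to 12 and 4 to 5 for clusters 1 and 3, where library 1 turned CDH11 and CDH10. For the genes of the fixed partner and regulator lists all 40 did. The single libraries gave a member sum of 1138.53 to 1238.54 CPM, 11 to 12 members in 10% of cells, 8.10% to 8.26% of cells with CDH1 and CDH2 and 0.381 to 0.409 clustered genes per cell. Of 698 settings of 104 single values, 628 kept direction and side of the threshold, 51 were weaker, 4 stronger, 8 moved and 7 reversed. Settings that clustered the cells anew did not test the same cells. The epiblast-like class held 49 and 82 cells in the main setting, 74 and 158 with all UMIs and 151 and 155 at Leiden resolution 1.0. The syncytiotrophoblast-like class held 26 and 67, but 21 and 51 with all UMIs and 34 and 95 with another split.

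Depth set the shares of cells. Members in 10% of cells or more numbered 5 at 2000 UMIs, 11 at 5000 and 22 without thinning. Cells with both CDH1 and CDH2 were 1.89%, 8.18% and 28.6%, and clustered protocadherin genes per cell 0.156, 0.395 and 2.11. Without a filter on cells no syncytiotrophoblast-like class was found, so that setting was not run for it.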
